A study of Mus musculus with 2 samples.

Results

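The insulin-like growth factor (IGF) system was followed through 9 genes, taken by symbol from the 31053 features of a single-cell RNA-seq study of injured mouse spinal cord. They are the ligands Igf1 and Igf2, the receptors Igf1r and Igf2r, and the binding proteins Igfbp2, Igfbp3, Igfbp4, Igfbp5 and Igfbp7, and each symbol matched exactly 1 feature. The study, which concerns how activity of the histone deacetylase HDAC3 shapes myeloid and glial responses to injury, has 2 samples: spinal cord treated with an HDAC3 inhibitor (HDAC3i) and spinal cord treated with vehicle, both taken 5 days after injury. Each is a single droplet library made with the 3′ version 3 chemistry of 10x Genomics. The labels name no compound, dose, strain, sex, age, injury level or number of animals, so neither library has a replicate. In the mm10 annotation (GENCODE M21) Igf1 lies on chromosome 10 (87858265 to 87937042, plus strand) and Igf1r on chromosome 7 (67952827 to 68233668, plus strand). Igfbp2 and Igfbp5 are neighbours on chromosome 1, on opposite strands (72824503 to 72852474 and 72857932 to 72874884).

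IGF1 and IGF2 are secreted growth factors that signal through the tyrosine kinase receptor encoded by Igf1r. The receptor encoded by Igf2r, which also sorts mannose 6-phosphate-tagged lysosomal enzymes, binds IGF2 and carries it to the lysosome, while the secreted binding proteins hold IGFs in the extracellular space and limit or extend their access to receptors. In the injured central nervous system, microglia and macrophages are known sources of IGF1, and oligodendrocytes, neurons and endothelial cells are known to respond to it.

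The HDAC3i library held 3423 barcodes with 38957752 unique molecular identifiers (UMIs), and the vehicle library 2523 barcodes with 29726813 UMIs. After filtering, 2904 HDAC3i cells with a median of 9654 UMIs and 2132 vehicle cells with a median of 10173.5 UMIs were kept, and 10 barcode sequences occurred in both libraries. Clustering, run without the 9 genes, gave 26 clusters, of which 23 were named from usual markers and joined into 15 cell classes, called "-like" because the names were rebuilt here. The levels of these markers describe the classes and are no separate test, because the same lists gave the names. In 14 of the 15 classes every marker was higher than in the remaining cells of both libraries. The exception was the monocyte/macrophage-like class, where 5 of 10 markers were. Its main cluster, led by Spp1 and Gpnmb, scored 2.67 for the monocyte or macrophage list and 1.999 for the border-associated macrophage list (mean log2 ratio of the markers to the median cluster). No cluster was named neuronal. Cells are not replicates, so no p-value is given between libraries or classes: levels are in CPM, the UMIs of a gene scaled to the UMIs of all genes in the same cells, with exact 95% Poisson intervals that cover counting error only. Levels are compared between cells, not between genes, because 3′ counts of different genes are not on 1 scale of length or capture.

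**Figure D1:**
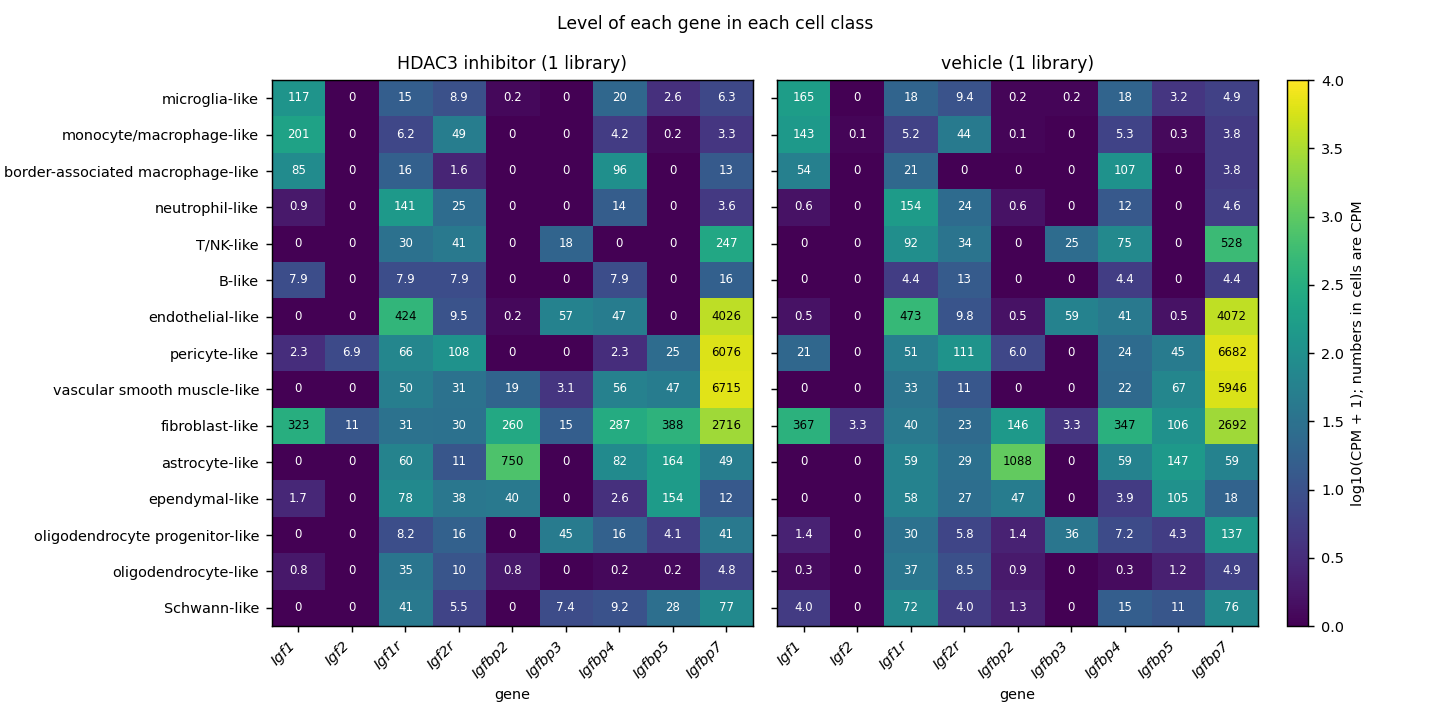
Level of each of the 9 genes (columns) in each of the 15 cell classes (rows) in the HDAC3i library (left) and the vehicle library (right); colour shows log10(CPM + 1) and the number in each square is the CPM. Igf1 is bright in the 3 microglial and macrophage rows and in fibroblast-like cells, Igf1r in endothelial-like cells, and Igfbp7 in the endothelial, pericyte, smooth muscle and fibroblast rows.

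Igf1, the main growth-promoting ligand, was a transcript of microglia, macrophages and fibroblasts. Its level was 323 CPM (interval 284 to 367) in fibroblast-like cells of the HDAC3i library and 367 CPM (302 to 442) in those of the vehicle library, from 58 HDAC3i and 26 vehicle cells. Monocyte/macrophage-like cells had 201 CPM (193 to 209) in the HDAC3i library and 143 CPM (135 to 152) in the vehicle library. Microglia-like cells had 117 CPM (108 to 127) in the HDAC3i library and 165 CPM (155 to 175) in the vehicle library. In summed UMIs, macrophages therefore stood above microglia in the HDAC3i library and below them in the vehicle library, with intervals that did not overlap in either. This order depends on the weighting of cells. With each cell weighted alike, macrophages stood above microglia in both libraries. Their means were 179 against 71.1 CPM in the HDAC3i library and 121 against 79.5 CPM in the vehicle library. Border-associated macrophage-like cells came next in summed UMIs, with 85.5 CPM in the HDAC3i library and 53.6 CPM in the vehicle library. Endothelial-like cells, which should lack the transcript, had 0 Igf1 UMIs in the HDAC3i library and 2 in the vehicle library. Pericyte-like cells had 2.29 CPM in the HDAC3i library and 20.9 CPM in the vehicle library, and 1 cell held 85.7% of the UMIs behind the vehicle value.

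Since the 3 microglial and macrophage classes hold many cells, they held most of the Igf1 UMIs: 89.5% of the 3681 in kept cells of the HDAC3i library and 93.0% of the 2397 in the vehicle library. The split among them differed. Monocyte/macrophage-like cells held 70.4% (Clopper-Pearson interval 68.9 to 71.8%) of Igf1 UMIs in the HDAC3i library and 47.1% (45.1 to 49.1%) in the vehicle library. Microglia-like cells held 16.1% (14.96 to 17.4%) in the HDAC3i library and 44.7% (42.7 to 46.7%) in the vehicle library. These shares depend on how the classes are drawn. At finer clustering the monocyte/macrophage share was 45.04% in the HDAC3i library and 30.3% in the vehicle library, where it was below the microglial share of 44.7%. In that clustering, a cluster rich in 8 phagocytic myeloid genes was left unnamed (68993 CPM in the HDAC3i library, 71208 CPM in the vehicle library). Its UMIs count for neither class, while the microglial share in the vehicle library stayed at 44.7%. With classes set from each cell's own markers the monocyte/macrophage share was 12.8% in the HDAC3i library and 5.21% in the vehicle library, below microglia at 17.6% in the HDAC3i library and 32.04% in the vehicle library. Under that rule, cells with a low best score, or with a close second list, received no label. Their UMIs count for neither class, so these shares do not rank the sources. Cell numbers moved the same way as the shares first given. Monocyte/macrophage-like cells were 544 of the kept cells in the HDAC3i library (18.7%) and 289 in the vehicle library (13.6%). Microglia-like cells were 447 in the HDAC3i library (15.4%) and 478 in the vehicle library (22.4%). With 1 library each, treatment cannot be told apart from the preparation of a library or the cells that dissociation recovered. Fibroblast-like cells, in spite of their high level, held 6.52% in the HDAC3i library and 4.63% in the vehicle library.

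**Figure D2:**
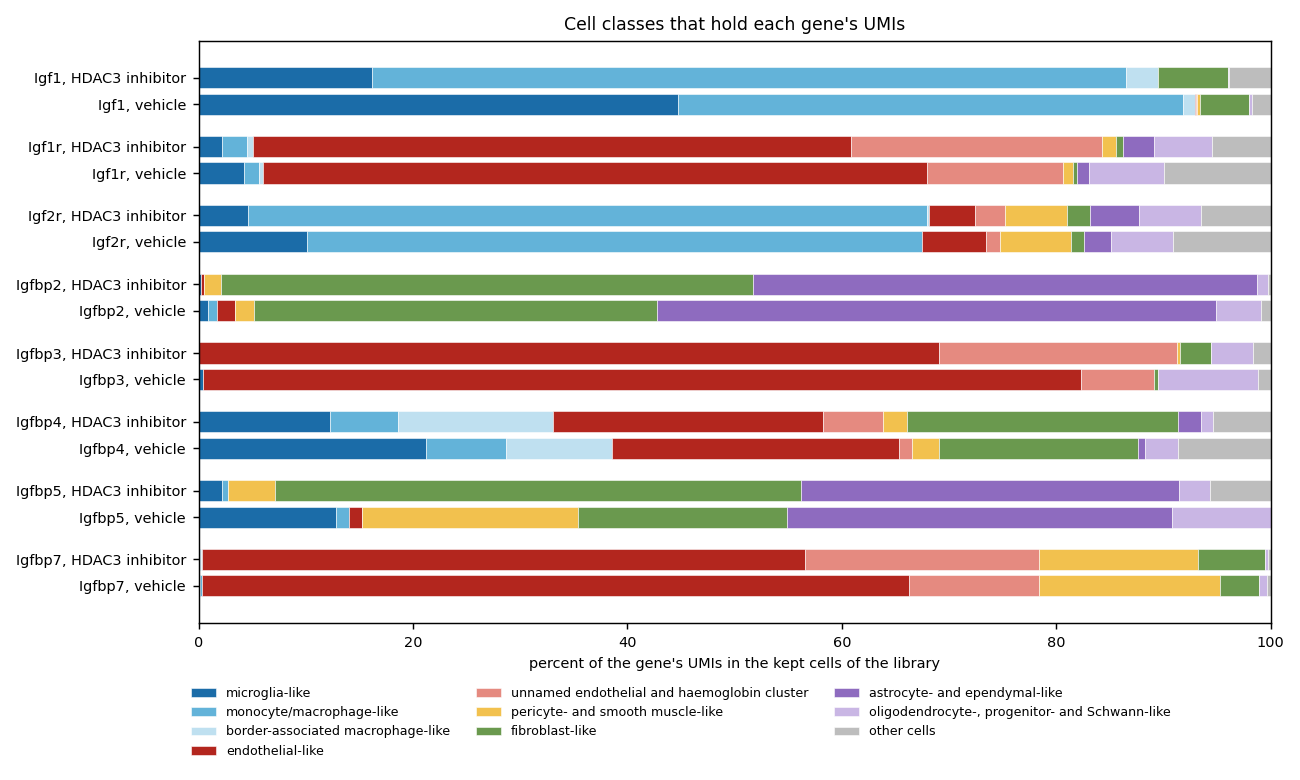
Share of each gene's UMIs (x axis, percent of the gene's UMIs in kept cells) held by groups of cell classes (colours), with the HDAC3i library above the vehicle library for each gene. Igf2 is left out because it has 11 HDAC3i and 2 vehicle UMIs; the microglial segment of Igf1 is 16.1% in the HDAC3i library and 44.7% in the vehicle library, while Igf1r, Igfbp3 and Igfbp7 are held mainly by endothelial cells in both.

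Within the microglia-like class, Igf1 was concentrated in a few cells. A UMI of Igf1 was found in 19.02% of microglia-like cells in the HDAC3i library and 20.3% in the vehicle library, against 63.2% of monocyte/macrophage-like cells in the HDAC3i library and 50.5% in the vehicle library. After thinning each cell to 2000 UMIs the microglial shares were 8.64% in the HDAC3i library and 7.89% in the vehicle library, and the macrophage shares 24.5% in the HDAC3i library and 17.99% in the vehicle library. Median depth was 10510 HDAC3i and 11979.5 vehicle UMIs per microglia-like cell, and 23223.5 HDAC3i and 25718 vehicle UMIs per monocyte/macrophage-like cell. In oligodendrocyte-like cells, which should lack the transcript, the unthinned shares were 1.08% in the HDAC3i library and 0.518% in the vehicle library.

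The clusters of the class show which microglia these were. In the largest, led by C1q genes and the chemokine Ccl4, Igf1 stood at 9.76 CPM in the HDAC3i library and 11.3 CPM in the vehicle library. In a second cluster, which also carried Spp1, it stood at 190 CPM in the HDAC3i library and 261 CPM in the vehicle library. In the third, led by Spp1 and here called Spp1-high, it reached 578 CPM (515 to 647) in the HDAC3i library and 665 CPM (613 to 720) in the vehicle library. The Spp1-high level was thus 59.2 times that of the largest cluster in the HDAC3i library (40.9 to 88.7) and 58.8 times in the vehicle library (43.4 to 81.5).

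The gradient ran with phagocytic genes and against homeostatic ones, which, unlike Igf1, could enter the clustering. The summed level of 8 phagocytic myeloid genes (Gpnmb, Spp1, Lgals3, Fabp5, Cd63, Lpl, Itgax and Cst7) was 75501 CPM in the HDAC3i library and 86847 CPM in the vehicle library in the Spp1-high cluster, and 1475 CPM in the HDAC3i library and 1538 CPM in the vehicle library in the largest cluster. The summed level of 6 homeostatic genes (P2ry12, Tmem119, Sall1, Siglech, Gpr34 and Cx3cr1) was 835 CPM in the HDAC3i library and 703 CPM in the vehicle library in the Spp1-high cluster, against 2380 CPM in the HDAC3i library and 2460 CPM in the vehicle library in the largest one. The Spp1-high cluster made up 13.9% of microglia-like cells in the HDAC3i library and 17.8% in the vehicle library, but held 51.5% of the class's Igf1 UMIs in the HDAC3i library and 56.9% in the vehicle library. Its cells were shallow, with a median of 3454 UMIs in the HDAC3i library and 3465 in the vehicle library. It scored 3.796 for the microglia list and 1.12 for border-associated macrophages, the next list.

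Among macrophages Igf1 was likewise higher in the cluster with more phagocytic genes, whose sum was 59856 CPM in the HDAC3i library and 48257 CPM in the vehicle library, against 3724 CPM in the HDAC3i library and 3461 CPM in the vehicle library in the monocyte cluster. The homeostatic sum was not lower there: it was 54.9 CPM in the HDAC3i library and 61.1 CPM in the vehicle library, against 17.7 CPM in the HDAC3i library and 11.96 CPM in the vehicle library in the monocyte cluster. The Spp1- and Gpnmb-led cluster had 205 CPM of Igf1 in the HDAC3i library and 155 CPM in the vehicle library. The monocyte cluster, led by Plac8, Chil3 and Ly6c2, had 4 Igf1 UMIs in 28 HDAC3i cells and 1 in 41 vehicle cells, or 14.2 CPM (3.86 to 36.3) in the HDAC3i library and 1.71 CPM (0.0432 to 9.52) in the vehicle library. A cycling cluster that scored almost alike for microglia and macrophages, and so was left unnamed, had 136 CPM in the HDAC3i library and 67.7 CPM in the vehicle library, with 28.1% of its Igf1 UMIs in 1 cell in the HDAC3i library and 36.6% in 1 cell in the vehicle library.

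**Figure D3:**
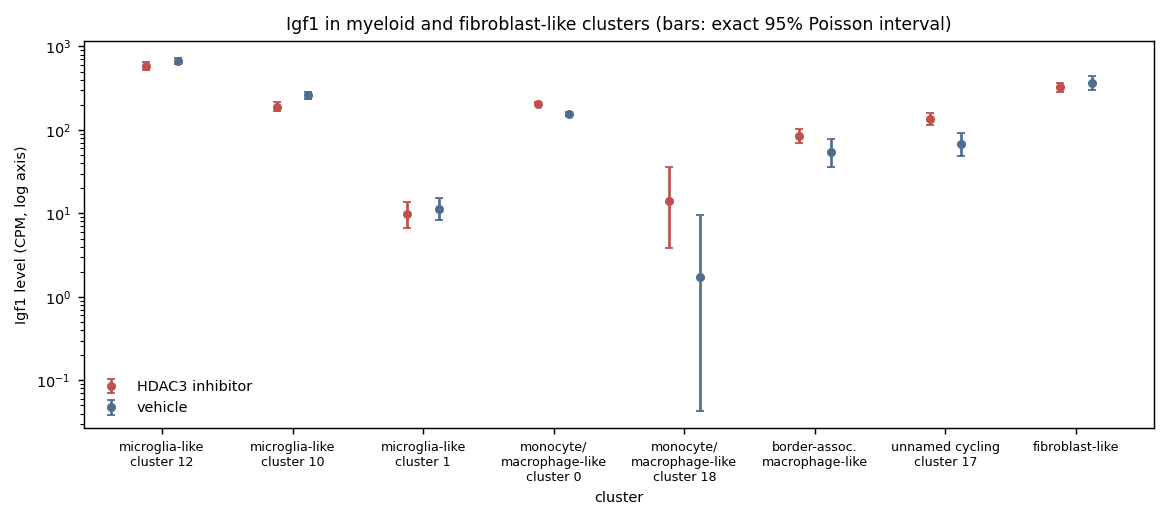
Igf1 level (y axis, CPM on a log scale) in the clusters of myeloid and fibroblast-like cells (x axis), HDAC3i library in red to the left of the vehicle library in blue; points are sums over a cluster and bars exact 95% Poisson intervals. Cluster 12 is the Spp1-high microglial cluster (578 CPM HDAC3i, 665 CPM vehicle), cluster 1 the largest microglial cluster (9.76 CPM HDAC3i, 11.3 CPM vehicle), cluster 0 the Spp1- and Gpnmb-led macrophages and cluster 18 the monocytes.

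Igf2, the ligand that dominates fetal growth and is imprinted, was hardly detected. Kept cells held 11 Igf2 UMIs in the HDAC3i library and 2 in the vehicle library. Of these, 8 in the HDAC3i library and 1 in the vehicle library were in fibroblast-like cells, and 3 in the HDAC3i library were in pericyte-like cells. At this depth no level can be set for the other classes. Its imprinted neighbour H19 was also seen mainly in fibroblast-like cells, with 14 HDAC3i and 15 vehicle UMIs.

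Igf1r, the signalling receptor, was highest in endothelial cells. Endothelial-like cells had 424 CPM (406 to 444) in the HDAC3i library and 473 CPM (451 to 496) in the vehicle library, and a UMI of Igf1r was found in 88.5% of them in the HDAC3i library and 86.7% in the vehicle library. An unnamed cluster that carried haemoglobin together with endothelial genes had 402 CPM in the HDAC3i library and 373 CPM in the vehicle library. The named endothelial cells held 55.8% of Igf1r UMIs in the HDAC3i library and 61.9% in the vehicle library, and the unnamed cluster a further 23.4% in the HDAC3i library and 12.7% in the vehicle library.

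Neutrophils came second. Neutrophil-like cells had 141 CPM (120 to 165) of Igf1r in the HDAC3i library and 154 CPM (136 to 174) in the vehicle library, and the endothelial level was 3.0 times as high in the HDAC3i library (2.55 to 3.55) and 3.07 times in the vehicle library (2.70 to 3.50). Among neutrophils the cluster led by Retnlg and Il1b had 250 CPM in the HDAC3i library and 218 CPM in the vehicle library. The cluster led by Ngp and Camp, granule genes of immature neutrophils, had 104 CPM in the HDAC3i library and 137 CPM in the vehicle library. The Retnlg-led cluster was the higher one in both libraries, by 2.41 times in the HDAC3i library (1.74 to 3.33) and 1.60 times in the vehicle library (1.21 to 2.08).

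Below these, the order of Igf1r levels was not resolved. Ependymal-like cells had 77.7 CPM in the HDAC3i library and 58.5 CPM in the vehicle library, pericyte-like cells 66.3 CPM in the HDAC3i library and 50.9 CPM in the vehicle library, Schwann-like cells 40.5 CPM in the HDAC3i library and 71.9 CPM in the vehicle library, and oligodendrocyte-like cells 34.6 CPM in the HDAC3i library and 36.6 CPM in the vehicle library. Intervals of neighbours in this range overlapped in at least 1 library. T/NK-like cells had 29.5 CPM in the HDAC3i library and 92.1 CPM in the vehicle library, but 62.5% of these UMIs lay in 1 cell in the HDAC3i library and 90.9% in 1 cell in the vehicle library. Within the Schwann-like class, the cluster led by Scn7a, a sodium channel gene of non-myelinating Schwann cells, had 93.5 CPM (10 UMIs) in the HDAC3i library and 145 CPM (22 UMIs) in the vehicle library.

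The myeloid classes that carried Igf1 had low Igf1r levels as a whole. Microglia-like cells had 14.8 CPM (11.7 to 18.6) in the HDAC3i library and 18.2 CPM (15.03 to 21.7) in the vehicle library, and monocyte/macrophage-like cells 6.21 CPM (4.92 to 7.72) in the HDAC3i library and 5.21 CPM (3.74 to 7.07) in the vehicle library. Among the microglial clusters, Igf1r was highest in the Spp1-high one, which was also the richest in Igf1. It stood there at 24.6 CPM (13 UMIs) in the HDAC3i library and 32.7 CPM (30 UMIs) in the vehicle library. The largest microglial cluster had 16.1 CPM in each library. In endothelial-like cells thinned to 2000 UMIs, Igf1r was found in 226 of 405 cells in the HDAC3i library and 175 of 303 in the vehicle library, and Igf1 in none. Among thinned monocyte/macrophage-like cells, 4 of the 8 HDAC3i and 0 of the 3 vehicle cells with Igf1r also held Igf1. For border-associated macrophage-like cells these were 3 of 6 HDAC3i and 0 of 2 vehicle cells, and for microglia-like cells 0 of 13 HDAC3i and 0 of 11 vehicle cells.

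Igf2r, the clearance receptor, had another distribution. Its level was highest in pericyte-like cells, at 108 CPM (79.0 to 143) in the HDAC3i library and 111 CPM (78.0 to 153) in the vehicle library. Monocyte/macrophage-like cells had 48.6 CPM (44.8 to 52.5) in the HDAC3i library and 44.0 CPM (39.5 to 48.8) in the vehicle library, and they held 63.4% of Igf2r UMIs in the HDAC3i library and 57.4% in the vehicle library. That share was 39.5% in the HDAC3i library and 38.5% in the vehicle library at finer clustering, and 12.9% in the HDAC3i library and 7.79% in the vehicle library with classes from single cells' markers. As for Igf1, both settings left cells without a class name, and the UMIs of those cells count for no named class. Ependymal-like cells had 37.5 CPM in the HDAC3i library and 27.3 CPM in the vehicle library, and neutrophil-like cells 24.9 CPM in the HDAC3i library and 24.3 CPM in the vehicle library. The macrophage and ependymal intervals overlapped in both libraries, as did the ependymal and neutrophil ones, while the macrophage level stood above the neutrophil one with separate intervals in both libraries.

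Igf2r also separated the macrophage classes. Microglia-like cells had 8.89 CPM in the HDAC3i library and 9.39 CPM in the vehicle library, so that the macrophage level was 5.46 times as high in the HDAC3i library (4.03 to 7.56) and 4.68 times in the vehicle library (3.56 to 6.25). The Spp1-high microglial cluster stood apart from the rest of its class, at 37.8 CPM (20 UMIs) in the HDAC3i library and 29.4 CPM (27 UMIs) in the vehicle library, against 1.26 CPM (4 UMIs) in the HDAC3i library and 1.76 CPM (7 UMIs) in the vehicle library in the largest cluster. Border-associated macrophage-like cells had 2 Igf2r UMIs in the HDAC3i library and 0 in the vehicle library, which allows a level of up to 5.75 CPM (3 counts).

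Igfbp2, a binding protein known from astrocytes and meningeal cells, was found mainly in 3 classes. Astrocyte-like cells had 750 CPM (630 to 887) in the HDAC3i library and 1088 CPM (766 to 1499.9) in the vehicle library, from 27 HDAC3i and 11 vehicle cells. The signal was uneven between these cells. Per cell, the HDAC3i astrocyte-like cells had a median of 0, a mean of 836 and a maximum of 15170 CPM. The vehicle ones had a median of 826, a mean of 1228 and a maximum of 5512 CPM. Fibroblast-like cells had 260 CPM in the HDAC3i library and 146 CPM in the vehicle library, with 46.1% of the UMIs in 1 cell in the HDAC3i library and 72.7% in 1 cell in the vehicle library. Ependymal-like cells had 40.1 CPM in the HDAC3i library and 46.8 CPM in the vehicle library. At finer clustering the fibroblast signal lay mainly in a group led by Col1a1 and Mgp, with 184 of the 193 UMIs in the HDAC3i library, from 23 cells, and 34 of the 44 in the vehicle library, from 4 cells.

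Igfbp3, the main carrier of circulating IGFs, was largely endothelial. Endothelial-like cells had 57.5 CPM (50.7 to 64.9) in the HDAC3i library and 59.2 CPM (51.6 to 67.6) in the vehicle library, and held 69.0% of Igfbp3 UMIs in the HDAC3i library and 82.0% in the vehicle library. The unnamed cluster with haemoglobin and endothelial genes, which these shares leave out, held a further 22.2% in the HDAC3i library and 6.77% in the vehicle library. Monocyte/macrophage-like, pericyte-like and ependymal-like cells had 0 UMIs in both libraries. Between the 2 endothelial clusters the level followed the arterial gene list. The cluster with the higher arterial genes (summed level of 6 genes 1971 CPM in the HDAC3i library and 2058 CPM in the vehicle library) had 122 CPM of Igfbp3 in the HDAC3i library and 138 CPM in the vehicle library. This arterial cluster also had 834 CPM of the 6 venous and capillary genes in the HDAC3i library and 786 CPM in the vehicle library. In the other cluster that sum was 2086 CPM in the HDAC3i library and 1957 CPM in the vehicle library. The next list after endothelial was erythroid in both clusters, at 5.08 in the arterial one and 1.79 in the other. The cluster with the higher venous and capillary genes had 22.9 CPM of Igfbp3 in the HDAC3i library and 27.8 CPM in the vehicle library, and the arterial cluster exceeded it by 5.33 times in the HDAC3i library (4.03 to 7.14) and 4.97 times in the vehicle library (3.72 to 6.67).

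A second source of Igfbp3 was a small progenitor cluster of the oligodendrocyte lineage. The cluster led by Cspg5, Ptprz1 and C1ql1 had 101 CPM in the HDAC3i library (11 UMIs in 10 cells) and 93.1 CPM in the vehicle library (25 UMIs in 20 cells). The neighbouring cluster led by Gpr17 and Tnr, genes of committed precursors, had 0 UMIs in the 24 HDAC3i cells and 0 in the 43 vehicle cells, so all of the class's Igfbp3 lay in the first.

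Igfbp4, an inhibitory binding protein cleaved by the protease PAPP-A, was highest in fibroblasts. Border-associated macrophages ranked second in both libraries but were not resolved from astrocytes. The transcript was also found in endothelium and other classes. Fibroblast-like cells had 287 CPM (250 to 328) in the HDAC3i library and 347 CPM (284 to 420) in the vehicle library, with a UMI in 79.3% of cells in the HDAC3i library and 88.5% in the vehicle library. Border-associated macrophage-like cells had 95.7 CPM (79.4 to 114) in the HDAC3i library and 107 CPM (81.0 to 139) in the vehicle library. Monocyte/macrophage-like cells had 4.19 CPM in the HDAC3i library and 5.34 CPM in the vehicle library, which put the border-associated cells 22.8 times higher in the HDAC3i library (16.4 to 32.1) and 20.1 times higher in the vehicle library (13.2 to 30.7). Igfbp4 thus ran opposite to Igf2r between these 2 macrophage classes. Astrocyte-like cells, with 27 HDAC3i and 11 vehicle cells, had 70.5 CPM of Igfbp4 as the mean of the libraries. Their intervals overlapped those of the border-associated cells in both libraries. Endothelial-like cells had 46.9 CPM in the HDAC3i library and 41.0 CPM in the vehicle library, and microglia-like cells 20.4 CPM in the HDAC3i library and 18.5 CPM in the vehicle library. Pappa itself had 3 UMIs in fibroblast-like cells of the HDAC3i library and 0 in those of the vehicle library, with at most 1 UMI per library in any other named class.

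Igfbp5, which binds to matrix and is known from astrocytes and ependyma, was a transcript of fibroblasts, of astrocytes and of the cells lining the central canal. Ependymal-like cells had 154 CPM (133 to 179) in the HDAC3i library and 105 CPM (79.1 to 137) in the vehicle library, with a UMI in 48.6% of cells in the HDAC3i library and 45.8% in the vehicle library. Fibroblast-like cells had 388 CPM (344 to 435) in the HDAC3i library and 106 CPM (72.4 to 149) in the vehicle library, but from 58 HDAC3i and 26 vehicle cells, and 1 cell held 19.4% of the UMIs in the HDAC3i library and 62.5% in the vehicle library. Astrocyte-like cells had 164 CPM in the HDAC3i library and 147 CPM in the vehicle library, from 30 HDAC3i and 5 vehicle UMIs. Endothelial-like cells had 0 UMIs in the HDAC3i library and 0.543 CPM in the vehicle library, unlike their Igfbp3, Igfbp4 and Igfbp7.

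Igfbp7, which is deposited in vascular basement membrane and binds IGFs weakly, marked the vessel wall as a whole. Vascular smooth muscle-like cells had 6715 CPM (6434 to 7004) in the HDAC3i library and 5946 CPM (5658 to 6245) in the vehicle library, and pericyte-like cells 6076 CPM (5847 to 6311) in the HDAC3i library and 6682 CPM (6408 to 6965) in the vehicle library. The order of these 2 classes changed between the libraries. Endothelial-like cells had 4026 CPM in the HDAC3i library and 4072 CPM in the vehicle library, and fibroblast-like cells 2716 CPM in the HDAC3i library and 2692 CPM in the vehicle library. Almost every cell of these 4 classes held a UMI, the lowest share being 96.2%, in fibroblast-like cells of the vehicle library.

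Outside these classes the Igfbp7 level was lower and differed between classes. It lay at 6.32 CPM in microglia-like cells of the HDAC3i library and 4.93 CPM in those of the vehicle library, at 3.26 CPM in monocyte/macrophage-like cells of the HDAC3i library and 3.81 CPM in those of the vehicle library, and at 4.83 CPM in oligodendrocyte-like cells of the HDAC3i library and 4.88 CPM in those of the vehicle library. The endothelial level exceeded the microglial one 637 times in the HDAC3i library (451 to 931) and 827 times in the vehicle library (585 to 1209). Astrocyte-like cells had 49.3 CPM (9 UMIs) in the HDAC3i library and 58.8 CPM (2 UMIs) in the vehicle library. Oligodendrocyte progenitor-like cells had 41.1 CPM in the HDAC3i library and 137 CPM in the vehicle library, with 70.0% of the UMIs in 1 cell in the HDAC3i library and 78.9% in 1 cell in the vehicle library. T/NK-like cells appeared to hold 247 CPM in the HDAC3i library and 528 CPM in the vehicle library, but 97.0% of these UMIs lay in 1 cell in the HDAC3i library and 96.8% in 1 cell in the vehicle library. Schwann-like cells had 77.3 CPM in the HDAC3i library and 75.9 CPM in the vehicle library, and their Scn7a-led cluster had 365 CPM (39 UMIs) in the HDAC3i library and 344 CPM (52 UMIs) in the vehicle library.

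**Figure D4:**
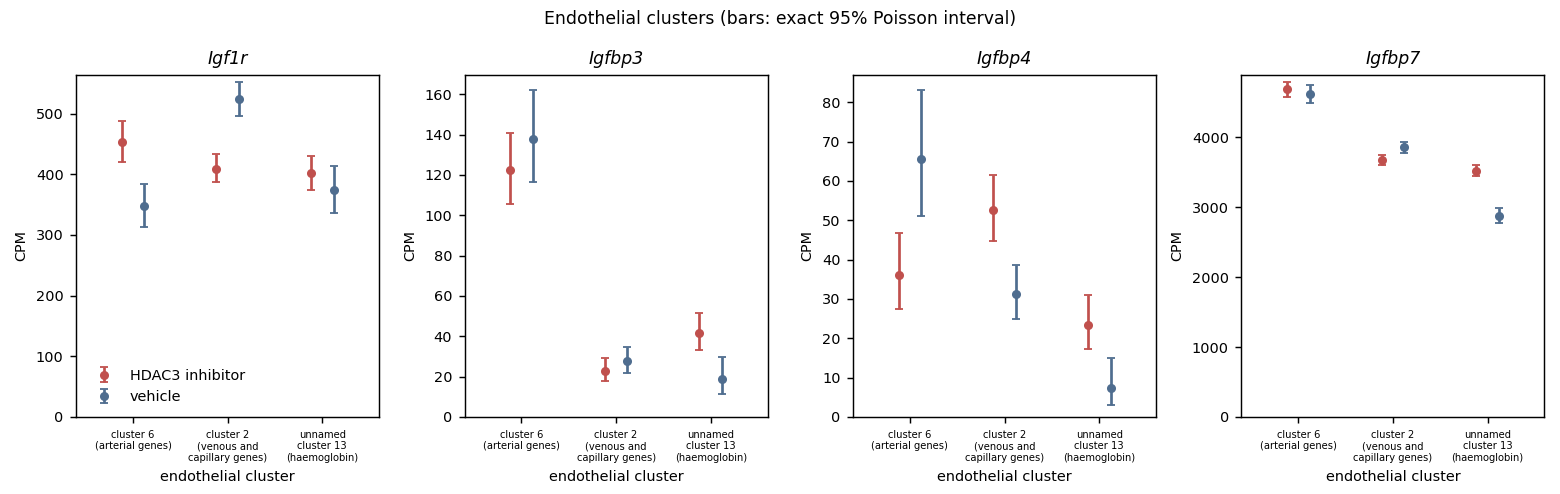
Levels of Igf1r, Igfbp3, Igfbp4 and Igfbp7 (y axes, CPM from 0) in the 2 endothelial-like clusters and the unnamed cluster with haemoglobin and endothelial genes (x axes), HDAC3i library in red to the left of the vehicle library in blue, with exact 95% Poisson intervals. Igfbp3 is higher in the cluster with arterial genes in both libraries, whereas the order of the libraries for Igf1r and Igfbp4 differs between clusters 6 and 2.

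The comparison the study was designed for, HDAC3i against vehicle, was made as a ratio of levels within the 8 classes that had at least 50 kept cells in each library. Of the 9 genes, those with at least 100 UMIs in a class over both libraries gave 16 ratios, and 0 of the 16 reached 1.5 times in either direction. Among all genes with at least 100 UMIs, the share past 1.5 times was 2.28% in microglia-like, 3.18% in monocyte/macrophage-like, 7.62% in neutrophil-like, 2.03% in endothelial-like, 8.17% in pericyte-like, 3.8% in ependymal-like, 2.07% in oligodendrocyte-like and 5.16% in Schwann-like cells. Set against these low shares, 0 of 16 is near the background and is no result about the IGF genes. Schwann-like cells had no gene of the 9 with 100 UMIs. The exact conditional intervals of 11 of the 16 ratios included 1, so that no difference was detectable there beyond counting error.

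The other 5 ratios were Igf1 in the microglia-like and monocyte/macrophage-like classes, Igf1r in endothelium, Igfbp5 in ependyma and Igfbp7 in pericytes. Igf1 was higher in monocyte/macrophage-like cells of the HDAC3i library, with a ratio of 1.40 (1.31 to 1.503), and lower in microglia-like cells of the HDAC3i library, with a ratio of 0.711 (0.642 to 0.787). The macrophage ratio was 1.32 (1.23 to 1.42) in the Spp1- and Gpnmb-led cluster alone. It lay above 1 under each of 11 other settings, from 1.26 with a stricter cell filter to 2.20 with classes set from each cell's own markers.

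The microglial ratio was less stable. It was below 1 in each of the 3 clusters, at 0.870 (0.756 to 0.999) in the Spp1-high cluster, 0.728 (0.620 to 0.852) in the second and 0.863 (0.528 to 1.39) in the largest. It was 0.988 when classes were set from each cell's own markers, and after thinning to 2000 UMIs it turned to 1.36, from 70 Igf1 UMIs in the HDAC3i library and 55 in the vehicle library. Phagocytic genes moved with it: their summed level in the second cluster was 18309 CPM in the HDAC3i library and 31258 CPM in the vehicle library, and in the macrophage cluster it was higher in the HDAC3i library. Their part in the Igf1 ratios was not tested.

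**Figure D5:**
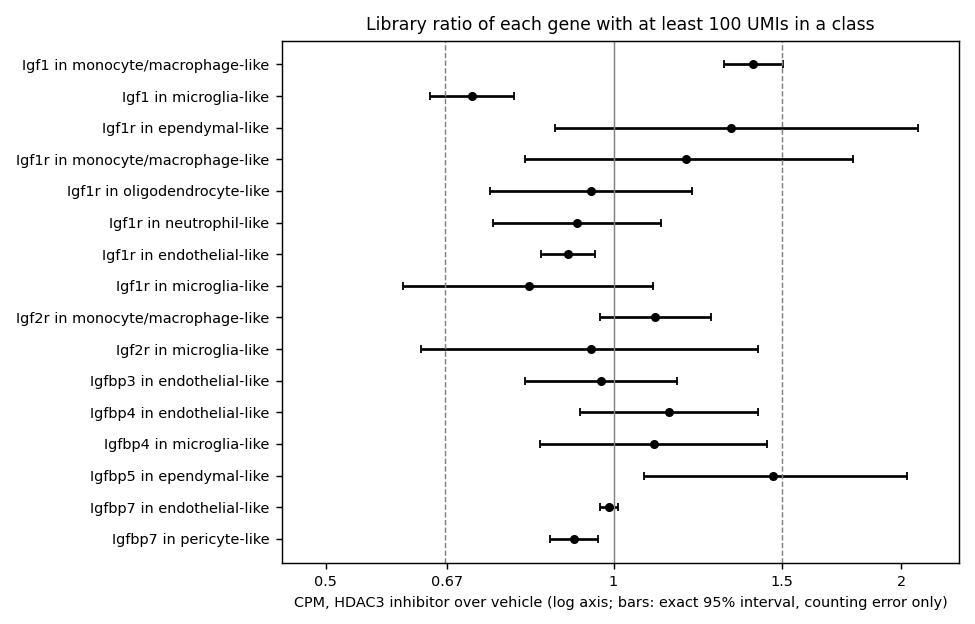
Ratio of levels, HDAC3i over vehicle (x axis, log scale), for the 16 pairs of gene and class with at least 100 UMIs (y axis); points are ratios of CPM and bars exact conditional 95% intervals for counting error, the solid line marks 1 and the dashed lines 1.5 times in each direction. All 16 points lie between the dashed lines, and Igf1 lies on opposite sides of 1 in monocyte/macrophage-like (1.40) and microglia-like cells (0.711).

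Igf1r in endothelial-like cells had a ratio of 0.896 (0.840 to 0.957), but its 2 clusters went opposite ways. The venous and capillary cluster had 409 CPM in the HDAC3i library and 524 CPM in the vehicle library, a ratio of 0.781 (0.722 to 0.844). The arterial cluster had 453 CPM in the HDAC3i library and 347 CPM in the vehicle library, a ratio of 1.30 (1.15 to 1.48). Igfbp4 did the same in the other direction, with a ratio of 1.69 (1.28 to 2.23) in the venous and capillary cluster and 0.551 (0.381 to 0.794) in the arterial one, and 1.14 (0.923 to 1.42) over the class. Igfbp3 had a ratio of 0.826 (0.585 to 1.17) in the venous and capillary cluster and 0.887 (0.712 to 1.11) in the arterial one. Finer clustering gave 3 endothelial clusters, of which the one led by Tmem252, with the highest venous and capillary gene sum in both libraries, had 135 CPM of Igfbp4 in the HDAC3i library (42 cells) and 62.2 CPM in the vehicle library (26 cells).

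Igfbp5 in ependymal-like cells had a ratio of 1.47 (1.08 to 2.03), from 177 UMIs in 185 HDAC3i cells and 54 UMIs in 72 vehicle cells. It passed 1.5 times without the cell with most UMIs in each library (1.52), with cells weighted alike (1.59) and after thinning (1.84). Igfbp7 in pericyte-like cells had a ratio of 0.909 (0.859 to 0.962), while in endothelial-like cells, where it rests on 18288 HDAC3i and 14985 vehicle UMIs, it was 0.989 (0.968 to 1.01). With thinning the pericyte ratio was 1.02. Among the ratios of 20 to 99 UMIs, 3 lay past 1.5 times: Igf1r at 0.564 (0.327 to 0.941) and Igfbp5 at 2.59 (1.03 to 7.06) in Schwann-like cells, and Igfbp5 at 0.561 (0.233 to 1.31) in pericyte-like cells. The shares over all genes given above cover genes with at least 100 UMIs only. Without such a share at this depth, the count is no result about the IGF genes.

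A list of 56 further genes of the pathway was counted in the same way. With at least 100 UMIs, 34 were measured in microglia-like cells, of which 0 were higher and 1 lower past 1.5 times. In monocyte/macrophage-like, endothelial-like and oligodendrocyte-like cells 32, 30 and 28 were measured and 0 were past 1.5 times. In neutrophil-like and pericyte-like cells 1 of 11 and 1 of 6 were higher, and 0 of the 8 measured in Schwann-like and 0 of the 6 in ependymal-like cells were past it. Against the shares over all genes of 2.28% in microglia-like, 7.62% in neutrophil-like and 8.17% in pericyte-like cells, these counts are near the background and are no result about the pathway. The 3 were Tsc2, which restrains mTOR, at 0.597 (0.382 to 0.914) in microglia-like cells; Pik3cb, a catalytic subunit of PI3 kinase, at 1.68 (1.19 to 2.37) in neutrophil-like cells; and Gsk3b, a kinase inhibited by AKT, at 1.53 (1.05 to 2.26) in pericyte-like cells.

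Other genes of the system had sources of their own. The insulin receptor Insr was highest, like Igf1r, in endothelial-like cells, at 133 CPM in the HDAC3i library and 139 CPM in the vehicle library. Igfbp6, a binding protein that prefers IGF2, was found in fibroblast-like cells at 758 CPM in the HDAC3i library and 688 CPM in the vehicle library. Htra1, a protease that cleaves binding proteins, stood at 1348 CPM in astrocyte-like cells of the HDAC3i library and 1118 CPM in those of the vehicle library. Mmp9, another such protease, stood at 1176 CPM in neutrophil-like cells of the HDAC3i library and 1434 CPM in those of the vehicle library. Cd93, a reported partner of the IGFBP7 protein, stood at 445 CPM in endothelial-like cells of the HDAC3i library and 422 CPM in those of the vehicle library. Igfals and Insrr had 0 UMIs in every named class of both libraries.

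Genes with the most similar pattern were sought by the Pearson r of log2(CPM + 5) over 13 classes (each library holding 20 or more of their cells), among 7100 genes, taking the lower r of the libraries. The classes share libraries and depth, so r is given as a description. Astrocyte-like cells, highest for Igfbp2 in both libraries and for Igfbp5 in the vehicle library, are not among these classes. The neighbours of Igfbp2 and Igfbp5 therefore leave that class out. For Igf1 the most similar genes were Cxcl16, with an r of 0.947 in the HDAC3i library and 0.936 in the vehicle library, then Olfml3 and Rab3il1. For Igf1r the first was Insr, with 0.862 in the HDAC3i library and 0.872 in the vehicle library. For Igfbp7 it was Foxc1, a transcription factor of mural cells, with 0.960 in the HDAC3i library and 0.962 in the vehicle library. Igfbp5 ran with Prelp (0.931 HDAC3i, 0.968 vehicle), Igfbp3 with Tpd52l1 (0.909 HDAC3i, 0.961 vehicle) and Igfbp2 with Tenm2 (0.906 HDAC3i, 0.905 vehicle). Igfbp4 and Igf2r had weaker neighbours, Tubb6 (0.791 HDAC3i, 0.821 vehicle) and Aldoa (0.809 HDAC3i, 0.741 vehicle).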

How the data were processed

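Gene expression was measured in 2 single-cell libraries of mouse spinal cord, 1 per group, made with the 10x Chromium 3′ version 3 kit and sequenced on a NovaSeq, per the labels' protocols. The deposited values are counts of UMIs per gene and barcode, made by the authors. The file headers name Cell Ranger 3.0.2. The submitters' processing notes name mm10 and Seurat, but the steps run in Seurat are not given in the sources used here. The 9 genes and all lists were chosen with earlier results of these data known.

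Barcodes entered the analysis when they showed 500 or more genes and 1000 or more UMIs, of which no more than 15% were mitochondrial. The automatic threshold of Scrublet called 17 HDAC3i and 6 vehicle barcodes, so the barcodes with the highest scores were removed instead, at 0.8% per 1000 barcodes (71 HDAC3i and 38 vehicle), a rate that comes from no source of the study. Both libraries were clustered together without integration (scanpy 1.11.5, 2000 variable genes without the IGF genes, 30 components, 20 neighbours, Leiden resolution 1). A cluster was named where its best marker list reached 2.5, was 0.5 above the next and had at least 3 markers of at least 20 CPM. These limits and the doublet rate were set after clusters and cells per library had been seen. So were the ratios per cluster, the levels at resolution 2, the folds within a library and the rule behind the results for a closer look.

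For each class, the UMIs of a library were added up. Levels have exact Poisson, shares Clopper-Pearson and ratios exact conditional binomial intervals of 95% (scipy 1.17.1), which cover counting error only. Ratios are HDAC3i over vehicle in classes of at least 50 cells per library. A ratio is counted as past 1.5 times where both libraries together held 100 UMIs or more, and the remaining ratios with 20 or more are given by count. All 9 genes are described in each class that holds them, and of the pathway list those past 1.5 times or abundant in each group of roles. The computation was tested on simulated data. Alternatives were other cell filters, doublets kept, resolution 2, classes from each cell's own markers, cells or clusters weighted alike, thinning to 2000 UMIs, median-ratio scaling, the largest cluster alone, and leaving out the cell with most UMIs.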

Additional observations from a re-analysis of the deposited data

Results flagged for a closer look

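The Igf1 ratio of HDAC3i over vehicle lay on opposite sides of 1 in 2 myeloid classes, with counting intervals that did not reach 1. It was 1.40 (1.31 to 1.503) in monocyte/macrophage-like cells and 0.711 (0.642 to 0.787) in microglia-like cells. With 1 library per group the difference between the classes was not tested. Weighting each cell alike brought the microglial ratio to 0.894, and thinning turned it to 1.36.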

How the results depend on the processing

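Of 170 recomputed ratios of the 9 genes, 140 moved by less than their counting interval and 30 by more, 9 of these with thinning. The number of the 9 genes past 1.5 times, 0 in each of the 8 classes, became 2 in Schwann-like and 1 in pericyte-like cells at a minimum of 20 UMIs. No share over all genes is given at that minimum, so these counts are no result about the IGF genes. The number became 1 in endothelial-like cells with the largest cluster alone (Igfbp4, 1.69). In ependymal-like cells it became 1 with cells weighted alike, 1 with thinning and 1 without the cell with most UMIs. It became 1 in microglia-like cells with cells weighted alike (Igf2r, 1.76). In monocyte/macrophage-like cells it became 2 when the markers of single cells set the classes (Igf1, 2.20, and Igf2r, 1.58), 1 with thinning and 1 with clusters weighted alike (Igf1r, 0.651). No share over all genes is given under these other settings either, so these counts too are no result about the IGF genes. The cause was not tested. Highest levels were followed over 7 alternatives among the 13 classes with 20 or more cells per library, which leaves out astrocytes. Their lead for Igfbp2 in both libraries, and for Igfbp5 in the vehicle library, was therefore not followed. Fibroblasts for Igf1 and Igfbp4, endothelium for Igf1r and pericytes for Igf2r stayed highest in both libraries in 7, fibroblasts for Igfbp5 in 4 and endothelium for Igfbp3 in 3, while pericytes and smooth muscle changed places for Igfbp7. No paired analysis was possible because each group has 1 library. Levels in classes under 50 cells, such as fibroblasts of the vehicle library and astrocytes, rest on few cells, and 1 cell can hold much of a value.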

Other observations

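An unnamed cluster led by haemoglobin and endothelial genes, with 97 HDAC3i and 45 vehicle cells, carried the vascular members of the system. Its Igfbp7 level was 3523 CPM in the HDAC3i library and 2875 CPM in the vehicle library, and its Igfbp3 level 41.7 CPM in the HDAC3i library and 18.8 CPM in the vehicle library. It also held 47 Igfbp4 UMIs in the HDAC3i library and 7 in the vehicle library. In the unnamed cycling myeloid cluster, Igfbp5 had 32 UMIs in the HDAC3i library, 65.6% of them in 1 cell, and 0 in the vehicle library.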
